A study of Mus musculus with 2 samples.

Results

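The genes described here are 42 interferon-stimulated genes (ISGs), chosen by gene symbol from the 24421 genes counted in mouse liver, and all 42 were found. They comprise 26 antiviral genes, 9 GTPases linked mainly to interferon gamma, 4 transcription factors, and the trio Parp9, Dtx3l and Parp14. The RNA came from male C57BL/6 mice kept on a high-fat diet (HFD) for 12 weeks, starting at 6 weeks of age. 1 library was from RORα f/f:Alb-Cre liver, a liver-specific knockout (LKO) of the nuclear receptor RORα, and 1 was from RORα f/f liver, which served as the control. Both genotypes carry the floxed Rora alleles, and only the first carries Cre, which the albumin promoter drives in hepatocytes, so that macrophages, endothelial cells and lymphocytes of the liver are not its target. The sources used here do not say how many animals each library stands for.

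Interferons are secreted proteins that cells release on sensing viral nucleic acid (type I interferons) or that lymphocytes release on activation (interferon gamma). Type I interferons act through the kinases JAK1 and TYK2 to form a complex that contains STAT2 and IRF9 and binds the interferon-stimulated response element (ISRE). Interferon gamma acts through JAK1 and JAK2, and its response runs through the gamma-activated sequence (GAS). In liver, resident macrophages (Kupffer cells), endothelial cells and hepatocytes all carry interferon receptors, and many ISGs keep a low level without infection.

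The libraries held 131843686 counts with the label LKO and 128201591 counts with the control label. Levels are given as CPM (counts scaled to a common library size), scaled with the trimmed mean of M-values (TMM). A gene was measured at a mean of at least 1 CPM and a summed count of at least 20, which 11137 genes met. Rora itself had 3677 counts in the library labelled LKO and 3701 in the control library, or 24.1 and 33.4 CPM, a log2 ratio of −0.47. Counts from exons outside the floxed part can add to that total, and counts per gene cannot check the deletion or the labels. As the total was not lost, every direction below is for the library labelled LKO. There was a single library per genotype, so no replicate stands behind any difference, no test was possible, and each 95% exact interval covers counting error only. The label of liver fits the markers, since Alb stood at 91007 CPM in the library labelled LKO and 117952 CPM in the control library.

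RefSeq promoter windows, from 250 bases before to 50 bases after a start site (GRCm38.p6), were found for 29 of the 42 genes. The ISRE core GAAANNGAAA, searched on both strands, lay in a window of 16 of these 29 genes, or 55.2%, against 3.98% of 26994 genes with a window. The GAS core TTCNNNGAA lay in 8 of 29, or 27.6%, against 9.55% of all, and 5 of the 29 held both cores. By group, an ISRE core was found for 9 of 17 antiviral genes and 6 of 7 GTPases, and a GAS core for 4 of 17 and 3 of 7. Stretches around the cores are shown for genes on which the results below turn, with ISRE and GAS cores in capitals, each read along its gene's strand. The antiviral genes come first, with the OAS pair whose ISRE runs are alike, and then the GTPases.
Isg15: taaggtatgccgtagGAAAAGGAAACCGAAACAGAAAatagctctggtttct
Ifit1: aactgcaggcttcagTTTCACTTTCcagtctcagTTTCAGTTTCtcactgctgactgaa
Bst2: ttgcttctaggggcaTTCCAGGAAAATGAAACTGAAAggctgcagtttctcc
Rsad2: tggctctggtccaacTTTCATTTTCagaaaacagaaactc
Oas1a: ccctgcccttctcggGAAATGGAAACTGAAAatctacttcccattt
Oas1g: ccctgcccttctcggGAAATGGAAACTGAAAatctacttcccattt
Gbp2: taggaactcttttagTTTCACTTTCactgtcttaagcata
Gbp7: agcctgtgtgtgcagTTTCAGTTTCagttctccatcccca
Irgm1: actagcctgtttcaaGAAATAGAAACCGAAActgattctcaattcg
Igtp: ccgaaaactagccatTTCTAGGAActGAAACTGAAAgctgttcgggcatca
Irgm2: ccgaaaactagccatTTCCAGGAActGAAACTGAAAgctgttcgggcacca

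These stretches lie at chr4:156200860-156200911 (Isg15, minus strand), chr19:34640770-34640828 (Ifit1, plus), chr8:71537572-71537623 (Bst2, minus), chr12:26456548-26456587 (Rsad2, minus), chr5:120907515-120907560 (Oas1a, minus) and chr5:120887601-120887646 (Oas1g, minus). Those of the GTPases lie at chr3:142620589-142620628 (Gbp2, plus), chr3:142530268-142530307 (Gbp7, plus), chr11:48871420-48871465 (Irgm1, minus), chr11:58199496-58199546 (Igtp, plus) and chr11:58214887-58214937 (Irgm2, plus). The 46 bases shown for Oas1a and Oas1g do not differ, and the 51 bases of Igtp and Irgm2 differ at 2 positions. In Isg15, 3 ISRE cores overlap in 1 run that ends 57 bases before the start site. Bst2, Igtp and Irgm2 hold a GAS core beside or overlapping the ISRE core. Oas1a and Gbp7 also hold GAS cores, farther upstream and not shown, and Oas1g holds none. Irf7, whose ratio is given below, had neither core in its windows, which says only that these letters are not there. Members without a window were Dhx58, Oas2, Mx1, Mx2, Rtp4, Usp18, Ifi27, Ifi27l2a, Ifi27l2b, Parp9, Parp14, Gbp6 and Iigp1.

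As a set the ISGs differed little between the libraries, and the genes that stood apart went both ways. With the label LKO, 3 of the 38 measured members stood higher by 1.5-fold or more with an interval that excluded 1 (7.89%), against 10.5% of all measured genes. At least 1.5-fold lower were 7 of 38 (18.4%), against 9.76% of all measured genes. The remaining 28 lay within 1.5-fold. In bulk tissue, fewer cells of a type and less RNA per cell cannot be told apart. The median log2 ratio of the 38 was −0.18, against −0.003 for all measured genes, and their range ran from −1.86 for Mx2 to 2.31 for Ifi27l2b. Those higher were Rsad2, Ifi27l2b and Gbp2, and those lower were Irf7, Oas1a, Oas1g, Oasl1, Mx2, Ifi27 and Ifi27l2a. Among the 13 members with a mean of 10 CPM or more, 0 were higher by this rule and 2, Irf7 and Ifi27, were lower. The share over all genes of that level was not worked out.

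The scale decides the sign of the small ratios. Scaling by total count in place of TMM adds 0.42 to every log2 ratio and moves the median of all measured genes to 0.42. The median of the 38 members then becomes 0.24, and 14 members with a log2 ratio below 0 under TMM come to lie above it. With total counts 11 members would be 1.5-fold higher and 3 lower, against 34.3% and 2.59% of all measured genes. Irf7, Oas1a and Mx2 stayed at least 1.5-fold lower under all 5 scalings tried. Rsad2, Ifi27l2b and Gbp2 stayed at least 1.5-fold higher, but for them this was no real check. The largest downward shift of a log2 ratio was −0.0135, with the upper quartile, too small to undo those calls. All directions below are relative to the bulk of genes, as TMM sets it. 5 members passed the filter with under 1 CPM in 1 library, namely Gbp2 and Ifi27l2b in the control library and Mx2, Ifi27l2a and Ifit1 in the library labelled LKO, so that counts over measured members are tilted by them.

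**Figure D1:**
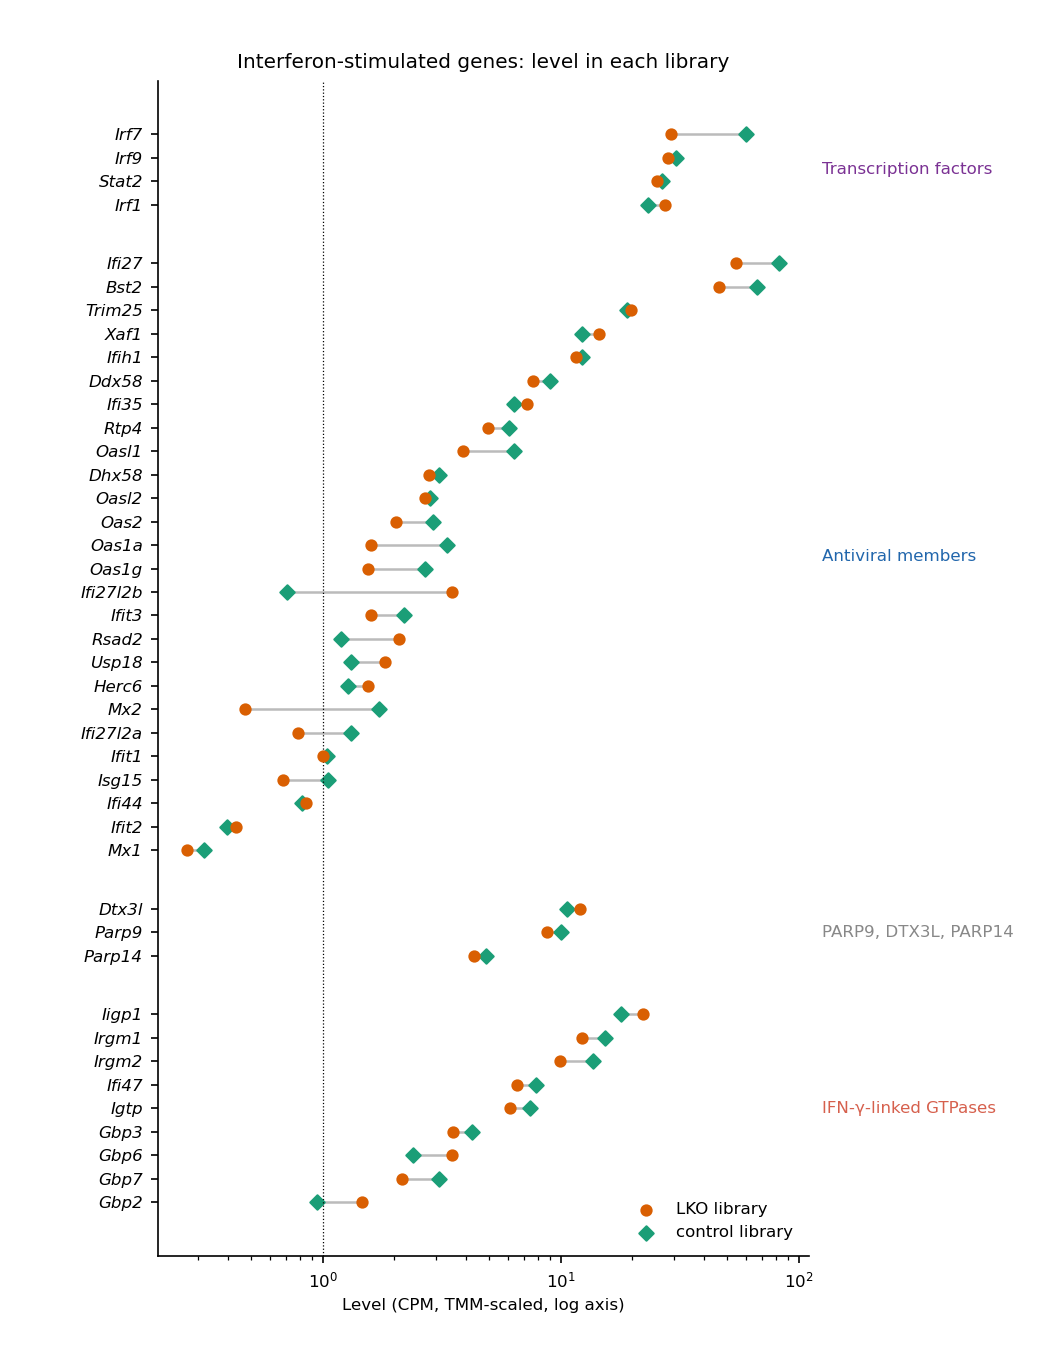
Level of each of the 42 interferon-stimulated genes in CPM (TMM-scaled, log axis) in the library labelled LKO (circles) and the control library (diamonds), grouped by role and ordered by mean level, with a dotted line at 1 CPM. The widest gaps are those of Ifi27l2b, at 3.49 and 0.704 CPM, Mx2, at 0.472 and 1.71 CPM, and among abundant genes Irf7, at 28.9 and 59.8 CPM.

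Among the 4 transcription factor genes, only Irf7 differed by more than 1.5-fold. IRF7 is itself induced by interferon and amplifies type I interferon production. It had 4409 counts in the library labelled LKO and 6633 in the control library, or 28.9 and 59.8 CPM. It was thus 2.07-fold (interval 1.99 to 2.15) lower, with a log2 ratio of −1.05, and −0.63 with total-count scaling. Irf7 lies on chromosome 7 from 141262706 to 141266481 on the minus strand (GRCm38), is protein coding and overlaps exons of Phrf1 on the opposite strand. As the use of strand in the counting is not given, reads of this pair cannot be told apart. Phrf1 had 5.62 CPM in the library labelled LKO and 6.26 CPM in the control library, a log2 ratio of −0.16. Irf7 counts exceeded those of Phrf1 in both libraries.

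Stat2 and Irf9, of the type I response complex, were nearly level. Stat2, which lends the complex its activation domain, had 25.3 CPM in the library labelled LKO and 26.5 CPM in the control library, a log2 ratio of −0.07. Irf9, its DNA-binding subunit, had 28.3 and 30.4 CPM, a log2 ratio of −0.11, and its exons overlap those of Rnf31 on the same strand. Rnf31 had 9.16 CPM in the library labelled LKO and 7.41 CPM in the control library, a log2 ratio of 0.31. Reads of this pair cannot be told apart in full. The signs of Stat2 and Irf9 turn with total-count scaling. Irf1, a factor that interferon gamma induces strongly, went the other way, at 27.5 CPM in the library labelled LKO and 23.3 CPM in the control library, 1.18-fold (interval 1.12 to 1.24) higher.

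The RNA sensors were close to level in both libraries. Ifih1 encodes MDA5, which senses long double-stranded RNA, and had 11.5 CPM in the library labelled LKO and 12.3 CPM in the control library. Ddx58 encodes RIG-I, which senses RNA with a triphosphate end, and had 7.66 and 8.99 CPM. Dhx58 encodes LGP2, which modulates both, and had 2.78 and 3.09 CPM. The log2 ratios were −0.09, −0.23 and −0.15, and all 3 turn positive with total-count scaling. Of these intervals only that of Ddx58 excluded a ratio of 1.

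The 5 members from the oligoadenylate synthetase (OAS) family lay below a ratio of 1. At least 1.5-fold lower were 3 of the 5, against 9.76% of all measured genes. Oas1b, a measured OAS gene that is not a member, had 1.14 CPM in the library labelled LKO and 1.05 CPM in the control library. Its log2 ratio was 0.12, with an interval that included a ratio of 1. Oas3 and Oas1c, also not members, were under the filter, with log2 ratios of −0.19 and −0.16. With total-count scaling Oas1a alone stays past 1.5-fold, since Oas1g then has a log2 ratio of −0.38 and Oasl1 of −0.28. OAS enzymes make the messenger that activates RNase L, which degrades RNA. Oas1a had 242 counts in the library labelled LKO and 368 in the control library, or 1.59 and 3.32 CPM, 2.09-fold (interval 1.77 to 2.47) lower. Oas1g had 1.54 and 2.69 CPM and was 1.74-fold (interval 1.47 to 2.08) lower. Both genes lie on the minus strand of chromosome 5, 8.64 kb apart, and 57.6% of the 50-base words of Oas1a also occur in Oas1g, so the split of reads within the pair is uncertain. Their ISRE runs, printed above, are the same sequence.

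Of the other OAS genes, Oasl1 passed the 1.5-fold rule. Oas2 had 2.03 CPM in the library labelled LKO and 2.90 CPM in the control library, 1.43-fold (interval 1.22 to 1.68) lower and so inside the 1.5-fold limit. The OAS-like gene Oasl1, which in mouse has been described as a brake on Irf7 translation, had 594 counts in the library labelled LKO and 703 in the control library, or 3.90 and 6.34 CPM. It was 1.63-fold (interval 1.46 to 1.82) lower. Oasl2 lies about 11 kb from Oasl1 on chromosome 5, and it was nearly level at 2.68 and 2.81 CPM, with a log2 ratio of −0.07 and an interval that included a ratio of 1. The 5 genes had a median log2 ratio of −0.70, or −0.28 with total-count scaling, where Oasl2 turns positive.

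Genes of the IFIT family, whose proteins bind foreign RNA and block its translation, were sparse. Ifit1 had 152 counts in the library labelled LKO and 115 in the control library, or 0.997 and 1.04 CPM, and its log2 ratio of −0.06 changes sign under total-count scaling. Ifit3 had 244 and 242 counts, or 1.6 and 2.18 CPM, and was 1.36-fold (interval 1.14 to 1.64) lower. It shares 51.2% of its 50-base words with Ifit3b, which had 0.839 CPM in the library labelled LKO and 1.43 CPM in the control library. Ifit2 was under the filter, with 66 and 44 counts. All 3 genes were at or below 2.18 CPM in both libraries.

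Inhibitors of viral entry, replication and budding held the largest gap on the lower side as well as a gene that was higher. Mx2, of the dynamin-like Mx family and annotated as a polymorphic pseudogene, had 72 counts in the library labelled LKO and 190 in the control library, or 0.472 and 1.71 CPM. It was 3.63-fold (interval 2.75 to 4.83) lower and spans positions 97535308 to 97560900 of chromosome 16 (plus strand). Its neighbour Mx1, which is disrupted in most inbred laboratory strains, had 41 and 35 counts and was under the filter. Of the 50-base words of Mx2, 6.55% also occur in Mx1.

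Rsad2 moved against Mx2. It encodes viperin, which makes a chain-terminating nucleotide against viral RNA synthesis. It had 319 counts in the library labelled LKO and 132 in the control library, or 2.09 and 1.19 CPM, 1.76-fold (interval 1.43 to 2.17) higher. Bst2 encodes tetherin, which holds budding virus at the cell surface. It had 7062 and 7397 counts, or 46.3 CPM in the library labelled LKO and 66.7 CPM in the control library, 1.44-fold (interval 1.39 to 1.49) lower. Rtp4, an interferon-induced regulator of receptor transport, had 4.96 and 6.08 CPM and a log2 ratio of −0.29, whose sign changes under total-count scaling. Genes of the same antiviral class therefore lay on both sides of a ratio of 1.

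ISG15 is a ubiquitin-like protein, and of the 3 measured genes around it 0 passed the 1.5-fold rule. Usp18, which removes ISG15 and dampens the type I receptor, had 277 counts in the library labelled LKO and 145 in the control library, or 1.82 and 1.31 CPM. It was 1.39-fold (interval 1.13 to 1.71) higher. Herc6, the main ISG15 ligase in mouse, had 1.54 and 1.28 CPM, with an interval that included a ratio of 1. Trim25, a ubiquitin ligase that acts with RIG-I, was nearly level at 19.6 and 18.9 CPM, also with an interval that included a ratio of 1. Isg15 itself was under the filter, with 104 counts in the library labelled LKO and 117 in the control library, or 0.682 and 1.06 CPM, although its window held 3 ISRE cores.

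The Ifi27 cluster on chromosome 12 held the widest gap of all 42 genes. Ifi27l2b had 532 counts in the library labelled LKO and 78 in the control library, or 3.49 and 0.704 CPM, 4.96-fold (interval 3.90 to 6.37) higher. It lies from 103450898 to 103457223 on the minus strand, 7.22 kb from Ifi27l2a. Ifi27l2a had 120 and 145 counts, or 0.787 CPM in the library labelled LKO and 1.31 CPM in the control library, 1.66-fold (interval 1.3 to 2.13) lower. That call of Ifi27l2a rests on a level under 1 CPM in the library labelled LKO, and it is lost with total-count scaling, at a log2 ratio of −0.31, and without the trend with length and GC content, at −0.30. Only 0.211% of the 50-base words of Ifi27l2b occur in Ifi27l2a.

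Ifi27 lies 1.93 kb on the other side of Ifi27l2a. The proteins of this family are small and lie in mitochondrial or nuclear membranes. Ifi27 had 8279 counts in the library labelled LKO and 9140 in the control library, or 54.3 and 82.5 CPM, 1.52-fold (interval 1.47 to 1.56) lower. That is just past the 1.5-fold limit, and without a trend of the ratio with transcript length and GC content, or with total-count scaling, Ifi27 falls inside it. Xaf1, an interferon-induced gene that promotes cell death, had 14.5 and 12.3 CPM, 1.18-fold (interval 1.1 to 1.26) higher. Ifi35, which pairs with the factor NMI, had 7.23 and 6.38 CPM, 1.13-fold (interval 1.03 to 1.25) higher. Ifi44 was under the filter, with 129 counts in the library labelled LKO and 91 in the control library.

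Parp9 and Dtx3l, whose proteins form an ADP-ribosylating and ubiquitinating pair, share a start region on chromosome 16 and overlap in exons on opposite strands. Dtx3l had 12.1 CPM in the library labelled LKO and 10.6 CPM in the control library, a log2 ratio of 0.18. Parp9 had 8.74 and 10.1 CPM, a log2 ratio of −0.20. Parp14, a further ADP-ribosyltransferase gene of that locus, had 4.32 and 4.84 CPM, a log2 ratio of −0.16. All of these lay within 1.5-fold, and with total-count scaling all were above 0.

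**Figure D2:**
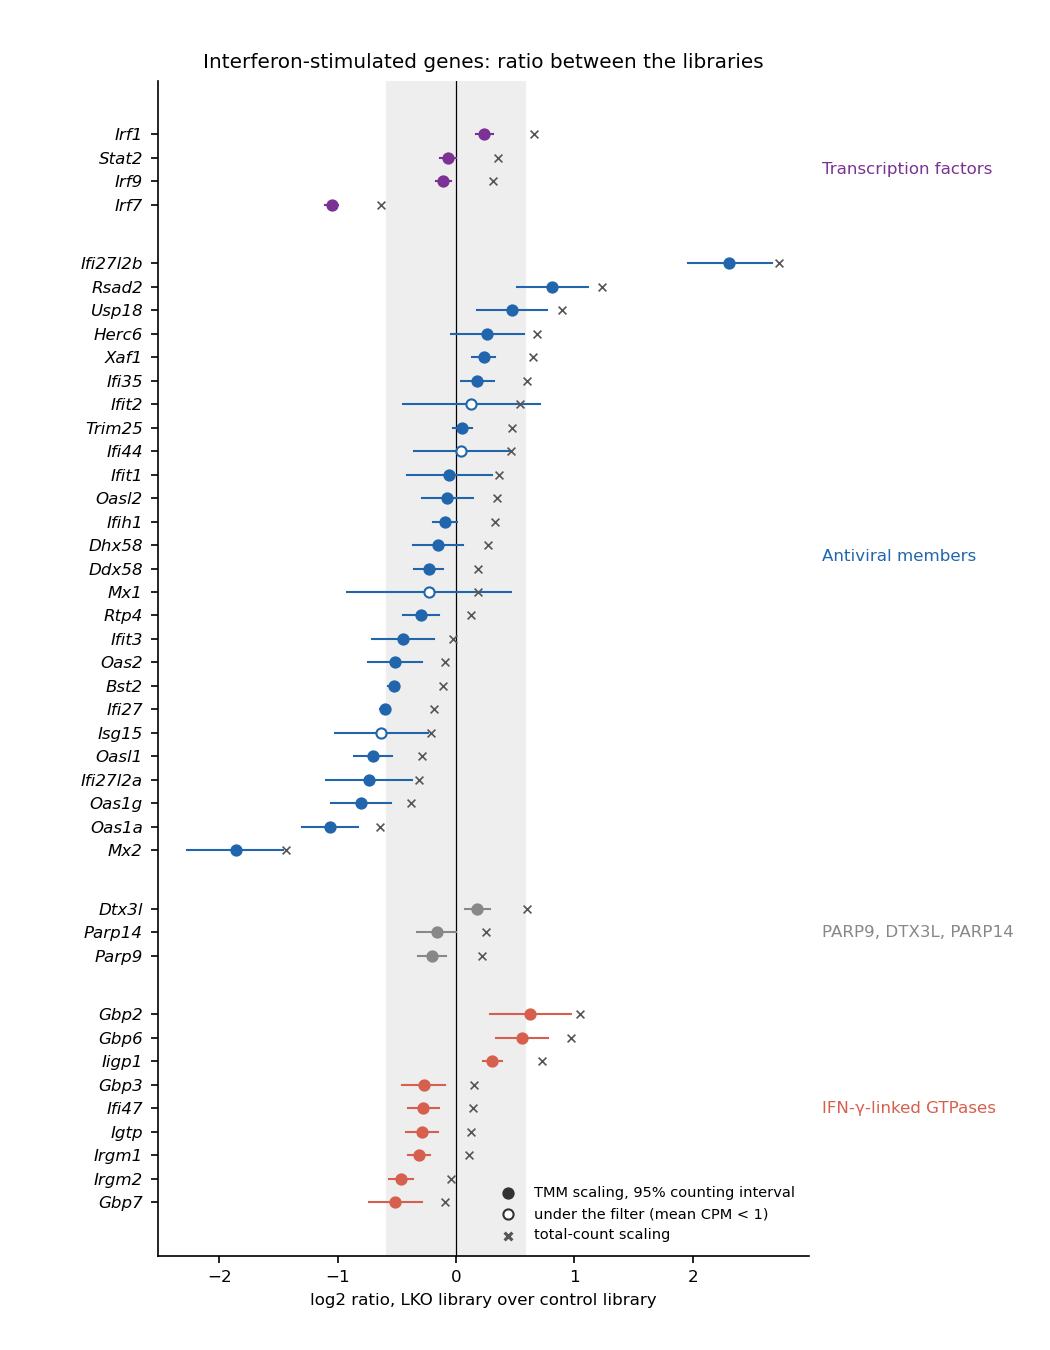
The log2 ratio of the library labelled LKO over the control library for each of the 42 genes, with 95% exact counting intervals, open circles for genes under the filter, crosses for total-count scaling and a grey band for ratios within 1.5-fold. Among the genes left of 0 under both scalings are Oas1a, Oas1g, Oasl1, Mx2, Irf7, Ifi27 and Bst2. Total-count scaling moves every ratio to the right, so Ifi27l2b, Rsad2, Gbp2 and every other gene right of 0 under TMM must stay there. Under TMM 8 of 9 GTPases are inside the band.

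The GTPases linked to interferon gamma spanned a narrower range of ratios than the antiviral genes, which are also more numerous. These guanylate-binding proteins (GBPs) and immunity-related GTPases (IRGs) attack the vacuoles in which intracellular pathogens live. Of 9 GTPases, all measured, 1 was at least 1.5-fold higher and 0 were lower, with log2 ratios from −0.51 to 0.63. Of 22 measured antiviral genes, 2 were higher and 6 lower, with log2 ratios from −1.86 to 2.31. Mx2 and Ifi27l2b, the ends of the antiviral range, had under 1 CPM in 1 library. So did Gbp2, the top of the GTPase range and the 1 GTPase called higher. The genes next to these ends were Oas1a at −1.06, Rsad2 at 0.81 and Gbp6 at 0.56. The shares over all measured genes were 10.5% higher and 9.76% lower, and 27.3% of the antiviral genes were lower. These counts depend on the TMM scale. With total-count scaling, Oas1a and Mx2 alone of the antiviral genes stay at least 1.5-fold lower. Rsad2, Usp18, Herc6, Ifi27l2b, Ifi35 and Xaf1 are then higher, as are the GTPases Gbp2, Gbp6 and Iigp1. Of all measured genes, 34.3% are then higher and 2.59% lower. The medians were −0.19 for antiviral genes and −0.28 for GTPases, a difference of 0.09, which no change of scaling can alter. With 1 library per genotype this difference has no test. It was −0.003 without the trend with length and GC content, 0.22 among genes of at least 10 CPM and 0.21 without members that have close copies.

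The IRG genes lay on both sides of a ratio of 1. Igtp (Irgm3), Irgm1 and Irgm2 encode regulatory IRGs that guard the cell's own membranes, and Ifi47 is a further gene of the family, all on chromosome 11. Irgm1 had 1877 counts in the library labelled LKO and 1695 in the control library, or 12.3 and 15.3 CPM, a log2 ratio of −0.31. Irgm2 had 9.93 and 13.7 CPM, a log2 ratio of −0.46. Igtp had 6.09 and 7.43 CPM, and Ifi47 6.51 and 7.88 CPM, with log2 ratios of −0.29 and −0.28. All 4 genes lay on the lower side, and Igtp, Irgm1 and Ifi47 turn positive with total-count scaling. Igtp and Irgm2 overlap in exons on the same strand, as do Ifi47 and Olfr56, so reads of each pair cannot be told apart in full. The printed core stretches of Igtp and Irgm2 are nearly the same.

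Iigp1, an effector IRG on chromosome 18 that coats and ruptures vacuoles, had the highest level per kilobase among the GTPases and lay on the other side. It had 3367 counts in the library labelled LKO and 1976 in the control library, or 22.1 and 17.8 CPM, 1.24-fold (interval 1.17 to 1.31) higher. Gm4951, a gene of the same locus that shares 2.83% of the 50-base words of Iigp1, had 13.3 and 14.4 CPM, a log2 ratio of −0.12.

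GBP genes went both ways. Gbp2 had 223 counts in the library labelled LKO and 105 in the control library, or 1.46 and 0.947 CPM, 1.54-fold (interval 1.22 to 1.97) higher. Gbp6 had 534 and 264 counts, or 3.50 and 2.38 CPM, 1.47-fold (interval 1.27 to 1.71) higher, but 59.7% of its 50-base words also occur in other genes. Gbp3 had 3.52 CPM in the library labelled LKO and 4.24 CPM in the control library, a log2 ratio of −0.27. Gbp7 had 2.15 and 3.07 CPM, 1.43-fold (interval 1.22 to 1.66) lower. Gbp2, Gbp3 and Gbp7 lie in a cluster on chromosome 3, so genes of a single cluster differed in direction. Grouped by locus after their values were seen, the 4 measured GBP genes of chromosome 5 (Gbp4, Gbp6, Gbp10 and Gbp11) were all above a ratio of 1, with log2 ratios from 0.18 to 0.95, although the interval of Gbp4 included 1. That direction depends on the filter, since Gbp8, with 64 counts in the library labelled LKO and 67 in the control library, and Gbp9, with 122 and 117, were under it and had log2 ratios of −0.53 and −0.40. The 4 measured genes of chromosome 3, with Gbp5 added, ran from −0.51 to 0.63, and 1 of them was above 1. Sequence shared among copies makes these values uncertain.

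Levels between genes were compared per length, which holds only if reads cover the whole transcript. Per kilobase of the longest annotated transcript, Bst2 and Ifi27 stood highest, at 58.5 and 55.6 CPM per kb in the library labelled LKO and 84.3 and 84.4 CPM per kb in the control library. Irf1 followed at 12.8 CPM per kb in the library labelled LKO, and Irf7 at 18.5 CPM per kb in the control library. Iigp1, the highest GTPase, had 7.08 CPM per kb in the library labelled LKO and 5.71 CPM per kb in the control library. Mx1, at 0.0794 and 0.0933 CPM per kb, stood lowest in both. The order by level per kilobase thus placed Bst2 and Ifi27 well apart from the rest in both libraries. Without division by length, Irf7 in the control library, at 59.8 CPM, was near Bst2 at 66.7 CPM.

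Upstream of these genes, no interferon transcript passed the filter, and 0 of the measured receptor genes passed the 1.5-fold rule. Of 21 interferon ligand genes, 19, among them Ifnb1, Ifng and the Ifna genes, had 0 counts in both libraries, which allows up to 0.0197 CPM each in the library labelled LKO and 0.0271 CPM in the control library. Ifnk had 52 counts in the library labelled LKO and 24 in the control library, and Ifnz had 2 and 0. All 5 measured receptor genes lay within 1.5-fold. Ifnar2, a type I receptor chain, had 91.3 and 95.4 CPM, and Ifngr2, a chain of the interferon gamma receptor, had 9.63 and 7.65 CPM, a log2 ratio of 0.33. Il10rb, a chain of the interferon lambda receptor, had 3.05 CPM in the library labelled LKO and 4.10 CPM in the control library, a log2 ratio of −0.43.

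Of the signalling regulators, a few stood apart. Among 9 negative regulators Cish was 11.1-fold (interval 9.63 to 12.8) higher, with 3243 counts in the library labelled LKO and 213 in the control library. CISH restrains cytokine receptors that signal through STAT5. Socs1, the main brake on interferon gamma signalling, had 132 and 136 counts, or 0.866 and 1.23 CPM, 1.42-fold (interval 1.11 to 1.81) lower. Among 12 measured sensors, adaptors and factors, 0 were higher and 2 lower by 1.5-fold, against 10.5% and 9.76% of all measured genes. Irf5, a factor gene active in macrophages, had 6.23 CPM in the library labelled LKO and 14 CPM in the control library, 2.24-fold (interval 2.07 to 2.43) lower. Tlr7, a sensor of single-stranded RNA, had 1.95 and 2.93 CPM, 1.51-fold (interval 1.28 to 1.77) lower. That is just past the 1.5-fold limit, and with total-count scaling Tlr7 falls inside it, at a log2 ratio of −0.17. Mavs, the adaptor of RIG-I and MDA5, was level at 253 and 246 CPM.

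ISGs outside the 42 also went both ways. The 44 measured type I-linked ISGs had a median log2 ratio of −0.10, and 2 stood higher and 7 lower by the same rule, against 10.5% and 9.76% of all measured genes. Epsti1 was the lowest, at 0.839 CPM in the library labelled LKO and 1.83 CPM in the control library, 2.18-fold (interval 1.74 to 2.74) lower. Apol9a had 24.7 and 41.9 CPM, 1.70-fold (interval 1.62 to 1.77) lower, and Parp10 had 4.29 and 2.83 CPM, 1.51-fold (interval 1.32 to 1.74) higher. Of 22 measured genes linked to interferon gamma, 3 were higher and 3 lower, near the shares over all measured genes, with a median of −0.03. Tap1, a peptide transporter for MHC class I, had 8.97 CPM in the library labelled LKO and 5.18 CPM in the control library, 1.73-fold (interval 1.57 to 1.91) higher. Ciita, the activator of MHC class II genes, had 1.5 and 3.34 CPM, 2.23-fold (interval 1.89 to 2.64) lower. Both medians turn positive with total-count scaling, at 0.32 and 0.39.

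**Figure D3:**
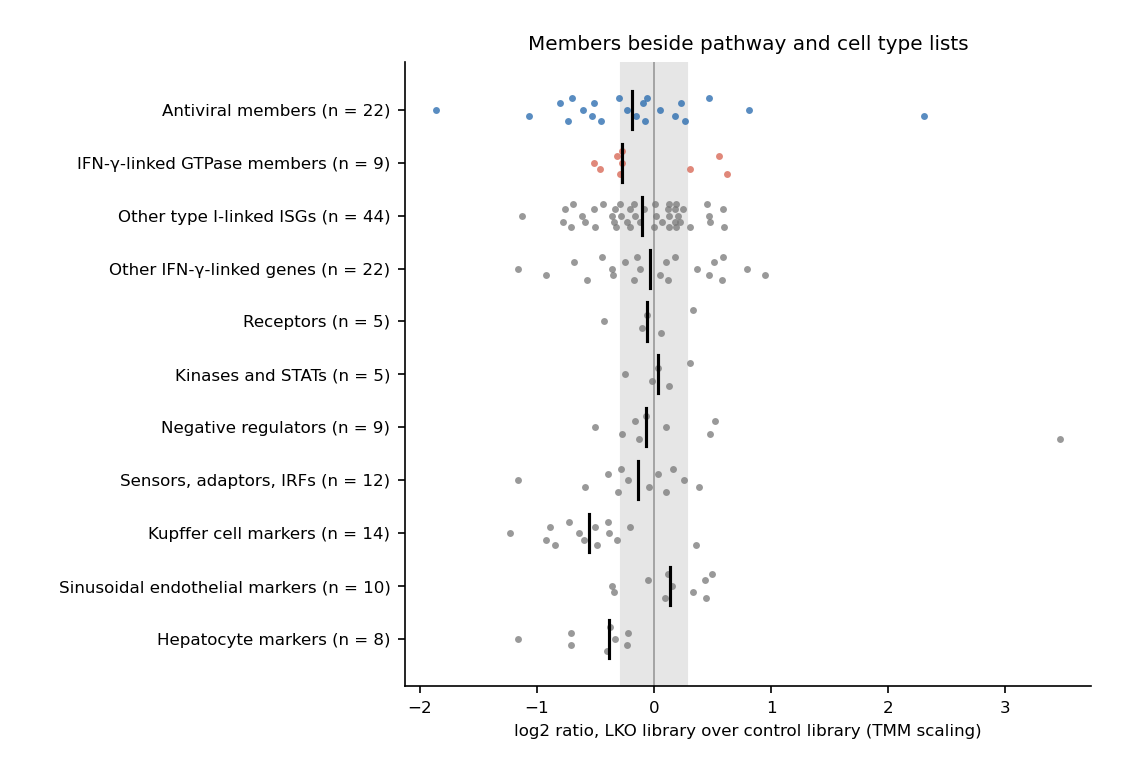
The log2 ratio of the library labelled LKO over the control library for measured antiviral and GTPase members, other pathway lists and cell type markers (dots are genes, bars are medians), with the central range (quartiles) of all measured genes in grey. Antiviral genes spread more widely, from −1.86 to 2.31, than the 9 GTPases, from −0.51 to 0.63. Both antiviral extremes, Mx2 and Ifi27l2b, and the highest GTPase ratio, Gbp2, are of genes under 1 CPM in 1 library. Kupffer cell markers have the lowest median, −0.55.

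Of 15 Kupffer cell markers 14 were measured, and 7 were lower by 1.5-fold and 0 higher, against 9.76% and 10.5% of all measured genes. Their median log2 ratio was −0.55, but −0.13 with total-count scaling, where 5 of the 14 lie above a ratio of 1 and Timd4 alone stays past 1.5-fold. The summed level of the 15 was 204 CPM in the library labelled LKO and 292 CPM in the control library. Timd4 had 2.21 and 5.17 CPM, Clec4f 8.70 and 16.1 CPM, and Cd163 4.10 and 3.20 CPM. The part of these cells in the ISG ratios was not tested. Of 10 sinusoidal endothelial markers 0 passed 1.5-fold, with sums of 284 and 266 CPM. Of 9 stellate cell markers 5 were higher and 0 lower, against 10.5% and 9.76% of all measured genes. Their median log2 ratio was 0.68, and the sums were 284 and 200 CPM. Col1a1, a fibrillar collagen gene, had 9.30 CPM in the library labelled LKO and 1.43 CPM in the control library, and Col3a1 had 9.43 and 3.05 CPM. Of 12 monocyte and recruited macrophage markers 5 were measured, with sums of 53.0 and 63.9 CPM, and Gpnmb, at 2.14 and 0.541 CPM, was the 1 past 1.5-fold. The part of either list in the ISG ratios was not tested. Of 9 markers of plasmacytoid dendritic cells, strong producers of type I interferon, 5 were measured. Ly6d and Runx2 were higher and 0 lower, against 10.5% and 9.76% of all measured genes. Ly6d, at 0.334 CPM in the control library, passed the filter through the library labelled LKO, as did Gpnmb. Bst2 is both a marker on that list and a member described above. The defining marker Siglech was under the filter, with 27 counts in the library labelled LKO and 9 in the control library and an interval that included a ratio of 1. Hepatocyte markers had 0 of 8 higher and 3 lower, against the same 10.5% and 9.76%. Their median log2 ratio was −0.39, or 0.03 with total-count scaling.

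Members with and without a core in their window were compared as a description. The 15 measured genes with an ISRE core had a median log2 ratio of −0.29, with 2 higher and 2 lower by the rule. The 11 without had a median of 0.05, with 0 higher and 2 lower. Of all measured genes 10.5% were higher and 9.76% lower. For the GAS core the medians were −0.46 over 7 genes with it and −0.09 over 19 without. Oas1a and Oas1g, whose printed ISRE runs are identical, count as separate genes here, and of the pair only Oas1a has a GAS core.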

How the data were processed

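Messenger RNA libraries were made from 500 ng of total liver RNA with a Lexogen kit, per the labels' protocols. The authors deposited whole-number counts per gene, 1 table for each library. The submitters' processing notes name TopHat, edgeR and mm10, with no versions; the sources used here do not name the counter, the annotation or the use of strand. From the deposited counts, CPM was computed here with TMM factors (edgeR 4.0.16, R 4.3.3), which were 1.157 for the library labelled LKO and 0.865 for the control library. Ratios carry 95% Clopper-Pearson intervals conditional on the summed count. A count of 0 was given a floor of 3 counts. Total counts, DESeq2 1.42.0 size factors, upper quartiles and totals without the 20 most abundant genes were alternatives. The ratio script was tested on simulated data. Gene positions came from GENCODE M21, and promoter windows from RefSeq. All 42 genes are accounted for; of other lists, the rule allowed naming the 3 highest and 3 lowest ratios and the 2 genes with most counts, and other genes named were chosen after their values were seen. The members and lists were chosen with earlier results of these data known. Some items are not reported here.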

Additional observations from a re-analysis of the deposited data

How the results depend on the processing

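Each genotype has 1 library, so leaving out a library was not possible and biological spread is unknown. No paired analysis was possible because each group holds 1 library. Total-count scaling gave a median log2 ratio of 0.24 for all measured members, 0.23 for antiviral genes and 0.14 for GTPases. By 1.5-fold 11 members were then higher and 3 lower, against 34.3% and 2.59% of all measured genes. Totals without the 20 most abundant genes gave 5 higher and 5 lower, without Oasl1 and Ifi27, against 15.2% and 6.67% of all measured genes. A mean of at least 10 CPM left 13 members, 0 higher and 2 lower. A limit of 2-fold gave 1 higher and 3 lower. By construction, scaling shifts every ratio alike, and the stricter filter and limit keep fewer genes. With the trend with length and GC content removed, 4 were higher and 5 lower. Shares of all measured genes are not given for the stricter filter, the 2-fold limit or the removed trend. Those counts therefore cannot be set against a general rate. DESeq2 size factors, the upper quartile and 0.5 or 5 added counts left 3 higher and 7 lower. Depth limits genes near 1 CPM most, where counts of 72 to 319 set the width of the intervals.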

Other observations

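Markers of lymphocytes, which release interferon gamma, were sparse, and the genes named here were chosen after their values were seen. Of 9 T cell markers in the files 1 was measured, and the summed level of the 9 was 2.22 CPM in the library labelled LKO and 3.63 CPM in the control library. The measured marker was Lck, with 186 counts in the library labelled LKO and 151 in the control library and an interval that included a ratio of 1. The other T cell markers named here were under the filter. Cd8a, a coreceptor of cytotoxic T cells, had 12 counts in the library labelled LKO and 74 in the control library. Cd3e (32 and 48), Cd3g (13 and 27), Cd4 (42 and 59) and Cd8b1 (12 and 33) also had intervals below a ratio of 1. Il7r, a receptor of resting T cells, had 27 and 7, and it alone on that list had an interval above 1. Of 10 markers of NK cells and type 1 innate lymphoid cells 1 was measured, with sums over the list of 2.75 and 3 CPM. It was Ccl5, with 270 counts in the library labelled LKO and 165 in the control library and an interval that included a ratio of 1. The other markers of that list named here were under the filter. Eomes, a factor gene of NK cells, had 4 counts in the library labelled LKO and 34 in the control library. Gzma had 0 and 12, and Nkg7 had 38 and 75, with an interval below a ratio of 1. Klrb1c, which encodes NK1.1, had 60 and 16, and it alone on that list had an interval above 1. The part of these cells in the ratios of the GTPases was not tested.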
